A study of Mus musculus with 9 samples.

Results

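The 10 genes of histamine, leukotriene and prostaglandin synthesis described here were followed across Mac1+ bone marrow cells of 3 mouse genotypes. They are the histamine-forming enzyme Hdc, the leukotriene genes Alox5, Alox5ap, Lta4h and Ltc4s with the receptor Ltb4r1, the lipoxygenase Alox15, and the prostaglandin genes Ptgs1, Ptgs2 and Ptges3. They were taken by symbol, as 10 of the 23420 symbols in the deposited table, with earlier results of these data known. All 10 symbols were found, and 7 of them (all but Alox15, Ltc4s and Ptgs2) passed the filter on low values that 10868 genes passed, set at 1 RPKM or more in 2 or more libraries. RPKM scales reads to gene length and library size. The library sizes used differed by group from the reads recovered from the values, as given under the processing.

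Each of the 9 libraries was made from 100 cells of C57BL/6 mice, sorted for Mac1, the integrin αM chain of granulocytes and monocytes. All groups carried the floxed alleles Ezh2 fl/fl and Runx1 fl/fl. The WT group (n = 3) carried nothing else, so it is a floxed control rather than a wild type. The ITD group (n = 2) also carried the activating Flt3 ITD/+ allele, an internal tandem duplication in a receptor kinase of early progenitors. The DKOITD group (n = 4) carried Flt3 ITD/+ and Rag1Cre+, a Cre that the series title ties to early lymphoid progenitors. The share of Mac1+ cells in which the floxed alleles were deleted is not stated. The sources used here give neither ages nor disease state. Whether libraries of a group come from separate mice is not stated, so p-values measure the spread between these libraries only, which may be technical.

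Histamine is made in 1 step from histidine by histidine decarboxylase and is stored by basophils and mast cells, while immature myeloid cells of the marrow also express the enzyme. Leukotrienes and prostaglandins are eicosanoids, lipid signals made from arachidonic acid that phospholipases free from membranes. 5-lipoxygenase, helped by the membrane protein FLAP, makes leukotriene A4, which becomes the neutrophil attractant leukotriene B4 or, joined to glutathione, the cysteinyl leukotrienes. Cyclooxygenases turn arachidonic acid into the precursor of prostaglandins and thromboxane.

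The DNA just upstream of the start sites is shown for 2 pairs of these genes whose levels moved together over the libraries, Hdc with Alox5 and Lta4h with Ltb4r1. Of the 10 genes, 8 had a start site in the RefSeq table of build GRCm38.p6 (Alox5ap and Alox15 did not), and each window holds the 250 bases before it. Each window was searched on both strands for the letters of 4 short motifs, and no matches overlapped each other. The GC box was read as GGGCGG. The core of RUNX sites was read as TGTGGT. The ETS core was read as GAGGAA, and other forms of ETS sites were not searched. The TATA box was read as TATAAA. Capitals mark a match in either orientation in these sequences, which are written 5′ to 3′ on the strand of the gene.
Hdc, chr2:126618679-126618928, minus strand: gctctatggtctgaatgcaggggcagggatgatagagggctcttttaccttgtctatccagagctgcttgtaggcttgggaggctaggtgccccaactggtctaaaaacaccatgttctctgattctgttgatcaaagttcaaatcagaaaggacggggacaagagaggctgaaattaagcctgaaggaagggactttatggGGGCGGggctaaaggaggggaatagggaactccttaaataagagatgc
Alox5, chr6:116461179-116461428, minus strand: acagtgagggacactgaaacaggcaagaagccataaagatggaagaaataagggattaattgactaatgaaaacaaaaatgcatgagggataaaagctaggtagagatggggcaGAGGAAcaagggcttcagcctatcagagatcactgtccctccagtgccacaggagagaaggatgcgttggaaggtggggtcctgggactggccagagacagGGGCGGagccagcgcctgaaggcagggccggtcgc
Lta4h, chr10:93453146-93453395, plus strand: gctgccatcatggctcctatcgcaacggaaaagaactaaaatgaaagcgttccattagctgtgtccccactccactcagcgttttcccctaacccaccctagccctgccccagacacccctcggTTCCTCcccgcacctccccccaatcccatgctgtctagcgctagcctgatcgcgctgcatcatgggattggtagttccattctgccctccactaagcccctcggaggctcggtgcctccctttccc
Ltb4r1, chr14:55765712-55765961, plus strand: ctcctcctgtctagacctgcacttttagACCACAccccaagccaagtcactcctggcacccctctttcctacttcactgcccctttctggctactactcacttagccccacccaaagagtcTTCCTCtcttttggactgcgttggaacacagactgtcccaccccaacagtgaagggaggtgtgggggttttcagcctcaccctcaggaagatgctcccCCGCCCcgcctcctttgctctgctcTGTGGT

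The GC box began 48 bases before the start of Hdc, 35 bases before that of Alox5 and, as its complement, 31 bases before that of Ltb4r1. It was present in 5 of the 8 windows and in 32.7% of the 32851 windows of all genes. The RUNX core lay in the windows of Ltb4r1, Ltc4s and Ptgs2, 3 of 8 against 14.0% of all windows. GAGGAA, the letters read as the ETS core, lay in 5 of 8 against 23.3%, and the TATA box in 0 of 8 against 12.4%. A match describes the letters in a window and is not a binding site. The Hdc window lies inside the longer GENCODE model of that gene. The windows of Ltc4s and Ptges3 overlap annotated exons of those genes, and that of Ptgs2 overlaps an exon of Ptgs2os.

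Depth, as whole reads recovered from the RPKM, ran from 2825728 in DKOITD 2 to 23124435 in WT 1. The transcript of the sort marker, Itgam, was listed at 10.98 to 39.03 RPKM in DKOITD, 78.1 to 97.3 RPKM in ITD and 90.3 to 143 RPKM in WT. The 12 listed genes of maturing neutrophils summed to a value from 35506 to 266254 RPKM in DKOITD, from 683142 to 729415 RPKM in ITD and from 880429 to 1193982 RPKM in WT. Of these 12, 11 fell in DKOITD against WT, and 9 did rescaled per recovered read, where 247 of all 10868 genes fell. The 12 listed dendritic cell genes summed to a value from 9459 to 38130 RPKM in DKOITD, from 4231 to 11397 RPKM in ITD and from 53.9 to 1226 RPKM in WT, with 11 of 12 higher in DKOITD than in WT. Of the other marker lists, 4 of 10 tested monocyte and macrophage genes and 1 of 2 lymphocyte genes rose. In the same comparison 1 of 6 promyelocyte and 1 of 3 erythroid genes fell, and 0 of 1 platelet gene changed. Of all tested genes 7.43% rose and 5.27% fell (limma, adjusted p under 0.05). In such pools, fewer cells of a type and less RNA per cell cannot be told apart. The labels number DKOITD 1 to 3 in a series from 228 to 274 and all other libraries, DKOITD 4 among them, from 385 to 393, without saying what the numbers mean. Where this series enters the model, DKOITD 4 alone carries the comparisons of DKOITD, so a call lost there may reflect fewer libraries. With the number series as a model term, 4 of all 10868 tested genes were called higher and 0 lower in DKOITD against WT. No marker that fell kept its call there.

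**Figure D1:**
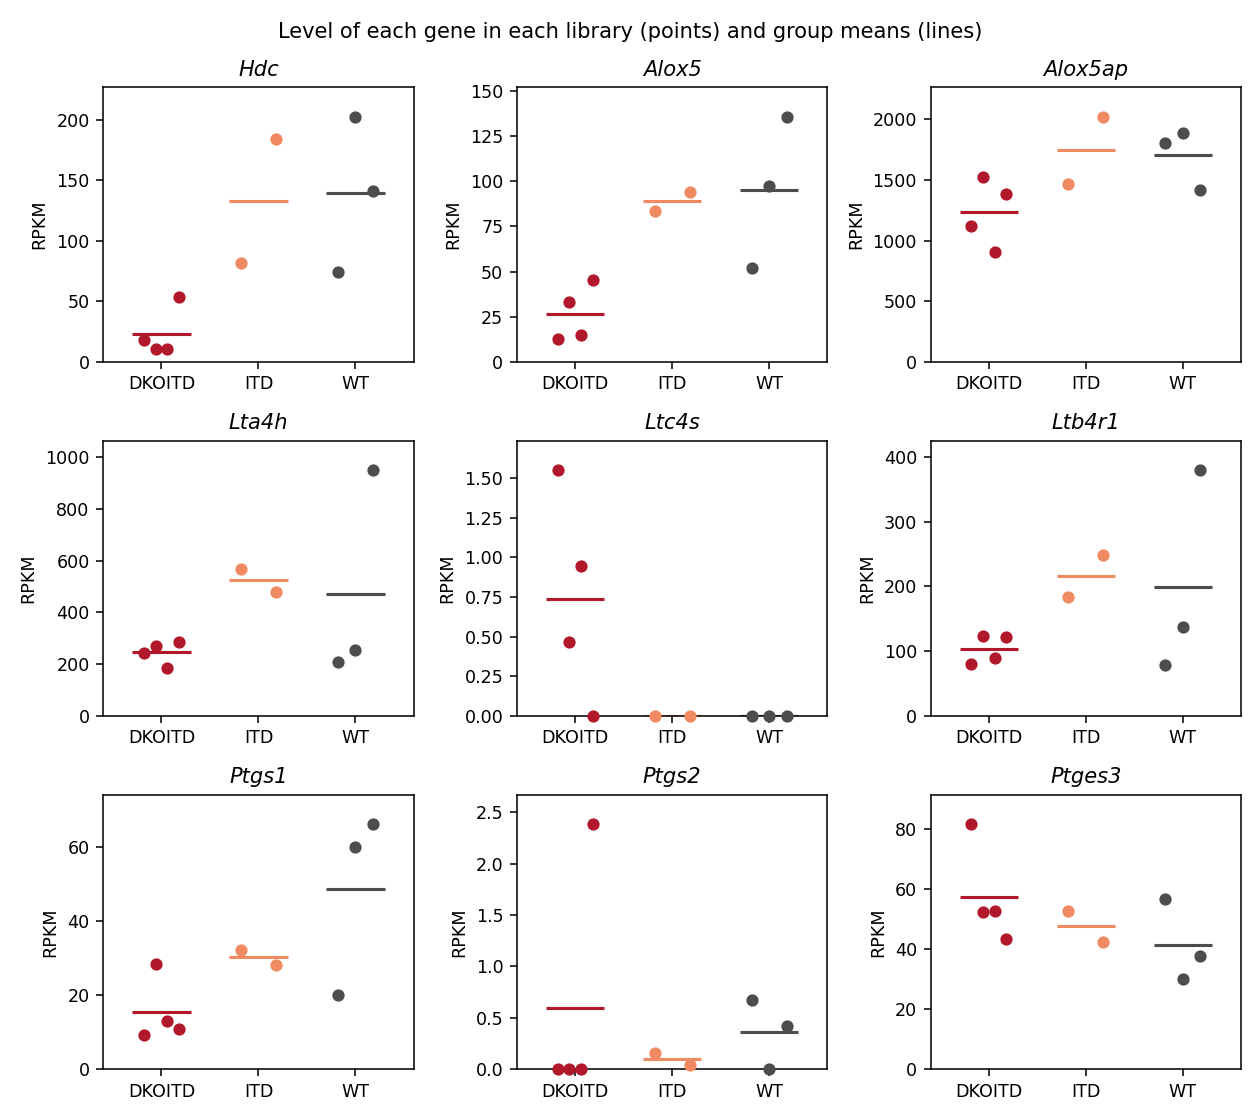
Level of 9 of the 10 genes (vertical axis, RPKM from 0) in each library, with 1 point per library of DKOITD, ITD and WT and a line at the group mean. Hdc and Alox5 lie lower in every DKOITD library than in any ITD or WT library, whereas Alox5ap, Lta4h, Ltb4r1, Ptgs1 and Ptges3 overlap between DKOITD and WT. Alox15, at 0 throughout, is not drawn.

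The levels per gene length span a wide range. In WT the mean was 1705 ± 250.2 RPKM for Alox5ap, 471 ± 415 RPKM for Lta4h, 198 ± 159.5 RPKM for Ltb4r1, 139 ± 63.9 RPKM for Hdc, 94.96 ± 42.1 RPKM for Alox5, 48.7 ± 25.1 RPKM for Ptgs1 and 41.5 ± 13.8 RPKM for Ptges3 (SD, n = 3). Only Alox5ap stood apart from its neighbour by more than their summed SDs. Alox5ap, Lta4h and Ltb4r1 kept the first 3 places in all 3 groups. In DKOITD, Ptges3 came next at 57.6 ± 16.7 RPKM, ahead of Alox5 at 26.5 ± 15.5 RPKM, Hdc at 23.2 ± 20.4 RPKM and Ptgs1 at 15.4 ± 8.82 RPKM (SD, n = 4). Among these last 4, no neighbours differed beyond their summed SDs. In ITD, Hdc at 133 ± 72.2 RPKM and Alox5 at 88.98 ± 7.40 RPKM again lay above Ptges3 at 47.6 ± 7.19 RPKM and Ptgs1 at 30.2 ± 2.96 RPKM (SD, n = 2).

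DKOITD was first compared with WT, the floxed controls without Flt3 ITD/+ or Rag1Cre. Hdc and Alox5 were lower in DKOITD, and the 5 other tested genes did not pass. These 2 of the 7 fell and 0 rose (limma, Benjamini-Hochberg adjusted p under 0.05), where 12.7% of all tested genes passed, 7.43% higher and 5.27% lower. At an unadjusted p under 0.05 the count was 3 of 7, where 30.2% of all genes passed. For the same 2 genes no DKOITD library reached any WT library, while such a separation was found in 25.0% of all tested genes, 14.1% higher and 10.9% lower. The median log2 difference of the 7 was -0.65, beside 0.17 for all genes tested. Over all genes 807 rose and 573 fell. With each library rescaled to its own recovered reads the median of all genes moved to 0.74, and 2525 rose and 247 fell. Under quantile normalization the median was -0.03, and 678 rose and 767 fell.

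Hdc (chromosome 2, 126593667 to 126619299 in mm10, GENCODE vM21), histidine decarboxylase, measured 18.02, 10.9, 10.6 and 53.4 RPKM in DKOITD 1, 2, 3 and 4. ITD 1 and 2 gave 81.9 and 184 RPKM, and WT 1 to 3 gave 74.6, 202 and 141 RPKM. DKOITD 1 to 3 were far below the rest, and DKOITD 4 lay nearest to the other groups without reaching them. These levels rest on 95 to 5445 recovered reads. Hdc fell by 2.74 ± 0.55 log2 units in DKOITD relative to WT (SE; limma, adjusted p = 0.00995). The call held when each of the 9 libraries was left out in turn. It was lost without a filter on low values (adjusted p = 0.0518) and with the number series as a model term, where the difference was -1.25 ± 0.64 (SE; adjusted p = 0.559) and DKOITD 4 is the only DKOITD library of the 385 to 393 series.

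Transcripts of the cells best known for histamine were few. Of 13 mast cell and basophil genes in the table, Mcpt4, Cma1, Tpsb2, Tpsab1, Fcer1a and Prss34 were at 0 in every library. The 13 summed to a value from 4.35 to 12.1 RPKM in DKOITD, from 1.07 to 1.72 RPKM in ITD and from 3.28 to 8.26 RPKM in WT, and of the 2 tested (Kit and Il1rl1) 0 changed in DKOITD against WT. Kit, which early progenitors also express, reached the highest level of the list, with 0.792 to 8.24 RPKM in DKOITD, 1.07 to 1.25 RPKM in ITD and 2.55 to 8.19 RPKM in WT. In DKOITD 4 Il1rl1 lay above Kit, at 2.97 against 1.38 RPKM, as did Mcpt8 in DKOITD 2. The basophil protease Mcpt8 was listed above 0 only in DKOITD 2 and 3 (3.26 and 0.882 RPKM), the mast cell protease Cpa3 only in DKOITD 1 (0.913 RPKM), Cd200r3 only in DKOITD 1 and 3 (0.977 and 1.34 RPKM) and the Fc receptor chain Ms4a2 only in WT 3 (2.85 RPKM). The summed neutrophil genes were 58057, 200864, 35506 and 266254 RPKM in DKOITD 1 to 4, so DKOITD 4 was highest of its group in both that sum and Hdc, while DKOITD 2 was high in the sum and low in Hdc. Their part in the difference of Hdc was not tested.

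With the RPKM as deposited, no other gene of the histamine list passed. Of its 12 symbols 11 were in the table and 6 were tested. In DKOITD against WT 1 of the 6 fell, Hdc itself. Rescaled per recovered read Hdc fell and 1 other gene rose, where 247 and 2525 of all 10868 genes did. Of all tested genes 7.43% rose and 5.27% fell in this comparison. The degrading enzyme Hnmt measured 2.83, 5.68, 1.97 and 4.97 RPKM in DKOITD and 23.9, 9.01 and 16.5 RPKM in WT, a log2 difference of -1.82 ± 0.59 (SE; limma, adjusted p = 0.0603). The vesicle transporter Slc18a2, which loads histamine and other amines, stood at -0.73 ± 0.58 (SE; limma, adjusted p = 0.415). The receptor Hrh2, which raises cyclic AMP, stood at 0.03 ± 0.55 (SE; limma, adjusted p = 0.981), and Hrh4 was listed at 0 in every library.

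Alox5 (chromosome 6, 116410077 to 116461178), 5-lipoxygenase, measured 12.8, 33.2, 14.9 and 45.3 RPKM in DKOITD 1, 2, 3 and 4. ITD 1 and 2 gave 83.7 and 94.2 RPKM, and WT 1 to 3 gave 51.8, 97.4 and 136 RPKM. The highest DKOITD library and the lowest WT library were close to each other, at 45.3 and 51.8 RPKM. Alox5 fell by 1.88 ± 0.46 log2 units in DKOITD relative to WT (SE; limma, adjusted p = 0.0238). The call was lost without DKOITD 1 (adjusted p = 0.068), DKOITD 3 (0.0724), WT 2 (0.0646) or WT 3 (0.0555), without a filter (0.0807), rescaled per recovered read (-1.13 ± 0.43, adjusted p = 0.07) and with the number series as a model term (-0.95 ± 0.64, adjusted p = 0.64). Alox5 and the summed neutrophil genes had the same 2 libraries highest within DKOITD, DKOITD 4 and DKOITD 2, and the part of neutrophil content in this difference was not tested.

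Alox5ap (chromosome 5, 149264767 to 149288153) encodes FLAP, the membrane protein that presents arachidonic acid to 5-lipoxygenase. It measured 1119, 1527, 904 and 1383 RPKM in DKOITD. ITD 1 and 2 gave 1468 and 2022 RPKM, and WT 1 to 3 gave 1805, 1890 and 1420 RPKM. The 3 groups overlapped. Exons of Gm19719 overlap those of Alox5ap on the other strand. Its log2 difference in DKOITD against WT was -0.48 ± 0.27 (SE; limma, adjusted p = 0.239), and rescaled per recovered read it was 0.28 ± 0.24 (SE; adjusted p = 0.4). Alox5ap exceeded Alox5 by a ratio of 87.7, 46.01, 60.7 and 30.5 in DKOITD, 17.5 and 21.5 in ITD, and 34.9, 19.4 and 10.5 in WT. On the log2 scale this ratio averaged 5.71 ± 0.64 in DKOITD (SD, n = 4) and 4.26 ± 0.87 in WT (SD, n = 3). The two-sided exact permutation test gave p = 0.0857 (where 0.0286 is the smallest the design allows). That ratio was chosen after its values were seen, and a larger fall of Alox5 than of Alox5ap was not shown.

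Lta4h (chromosome 10, 93453411 to 93484875), leukotriene A4 hydrolase, makes leukotriene B4. It measured 241, 268, 183 and 287 RPKM in DKOITD. It reached 569 and 480 RPKM in ITD 1 and 2, and WT 1 to 3 gave 208, 254 and 949 RPKM. WT 3 stood far above WT 1 and WT 2, which lay within the DKOITD range. The log2 difference in DKOITD against WT was -0.61 ± 0.44 (SE; limma, adjusted p = 0.362), and it turned to 0.07 ± 0.26 without WT 3 (SE; adjusted p = 0.874) and to 0.15 ± 0.44 rescaled per recovered read (SE; adjusted p = 0.817). The listed promyelocyte genes summed to 1004, 323 and 6009 RPKM in WT 1 to 3. That sum was 3300 and 463 RPKM in ITD 1 and 2 and 388 to 2809 RPKM in DKOITD. The part of these genes in the levels of Lta4h and Ltb4r1 was not tested.

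Ltb4r1 (chromosome 14, 55765962 to 55768494), the high-affinity receptor of leukotriene B4, measured 79.1, 123, 89.2 and 121 RPKM in DKOITD. ITD 1 and 2 gave 184 and 248 RPKM, and WT 1 to 3 gave 78.4, 137 and 379 RPKM. As with Lta4h, WT 3 was the highest library of all. The log2 difference in DKOITD against WT was -0.65 ± 0.44 (SE; limma, adjusted p = 0.334), and 0.11 ± 0.43 rescaled per recovered read (SE; adjusted p = 0.873). It was -0.03 ± 0.32 without WT 3 (SE; adjusted p = 0.949) and -1.16 ± 0.40 without WT 1 (SE; adjusted p = 0.0905).

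Ltc4s (chromosome 11, 50236461 to 50238616), leukotriene C4 synthase, the first enzyme of the cysteinyl branch, was close to the detection limit. It was listed at 1.55, 0.465 and 0.943 RPKM in DKOITD 1 to 3, from 11, 1 and 6 recovered reads. It had 0 reads in DKOITD 4, in both ITD libraries and in the 3 WT libraries, where a count of 0 allows up to 0.34 RPKM (DKOITD 4), 1.09 and 0.435 RPKM (ITD 1 and 2) and 0.273, 0.451 and 0.44 RPKM (WT 1 to 3), taken as 3 reads and covering counting error only. The libraries with reads are those of the lower label number series. Its exons overlap those of Gm26542 on the other strand, from which an unstranded method cannot separate its reads, and no test was made.

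The leukotriene list moved both ways. Of its 23 symbols, 15 were tested, and 3 rose and 3 fell in DKOITD against WT, Alox5 among the latter. Of all tested genes 7.43% rose and 5.27% fell. The median log2 difference of the list was -0.61, beside 0.17 for all genes. Rescaled per recovered read 4 of the list rose and 1 fell, where 2525 and 247 of all 10868 genes did. Cysltr1, a receptor of cysteinyl leukotrienes, measured 40.5, 26.7, 58.5 and 32.6 RPKM in DKOITD and 1.28, 0.0321 and 3.17 RPKM in WT. It rose by a log2 difference of 4.19 ± 0.58 (SE; limma, adjusted p = 0.00231). Dpep2, a dipeptidase that converts leukotriene D4 to E4, measured 18.9, 61.5, 39.2 and 32.3 RPKM in DKOITD and 1.88, 0 and 2.59 RPKM in WT, a rise of 4.04 ± 0.53 (SE; limma, adjusted p = 0.00164). The ITD libraries lay between, at 3.02 and 13.9 RPKM for Cysltr1 and 13.8 and 20.6 RPKM for Dpep2. Dpep2 in ITD was above every WT library, by 3.04 ± 0.63 (SE; limma, adjusted p = 0.234), and overlapped DKOITD, with a difference of 1.01 ± 0.60 between DKOITD and ITD (SE; adjusted p = 0.459). Neither gene overlapped between DKOITD and WT, and with the number series as a model term they stood at 3.97 ± 0.93 (Cysltr1; SE; adjusted p = 0.216) and 3.94 ± 0.85 (Dpep2; SE; adjusted p = 0.192). Cyp4f18, the neutrophil enzyme that inactivates leukotriene B4, rose by 1.21 ± 0.29 (SE; limma, adjusted p = 0.0208), from 44.4 to 79.4 RPKM in WT to a level of 130 to 156 RPKM in DKOITD. ITD was at the level of DKOITD, with 105 and 168 RPKM, a difference of 0.10 ± 0.33 between DKOITD and ITD (SE; adjusted p = 0.917) and of 1.11 ± 0.34 between ITD and WT (SE; adjusted p = 0.42). The call of Cyp4f18 in DKOITD against WT was lost in 4 of 16 other settings, among them without DKOITD 1 or DKOITD 3 (adjusted p = 0.0562 and 0.0631) and with the number series as a model term (1.08 ± 0.46, adjusted p = 0.488).

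Mgst2, a membrane glutathione transferase that can also make leukotriene C4, measured 49.1, 77.6, 33.6 and 105 RPKM in DKOITD. Its levels were 233 and 257 RPKM in ITD 1 and 2, and WT 1 to 3 gave 312, 335 and 391 RPKM. Mgst2 fell by 2.49 ± 0.35 log2 units in DKOITD against WT (SE; limma, adjusted p = 0.00272), and it kept the call in every setting tried except the number series as a model term (-1.71 ± 0.47, adjusted p = 0.285). Cotl1, an actin-binding protein that also binds 5-lipoxygenase, fell by 1.40 ± 0.38 with overlapping groups (SE; limma, adjusted p = 0.0325). It lost the call in 9 of 16 other settings, among them without DKOITD 1, DKOITD 2, DKOITD 3, WT 2 or WT 3 and rescaled per recovered read (-0.64 ± 0.36, adjusted p = 0.198). Neutrophil markers fell with Mgst2 and Cotl1, and dendritic cell markers rose with Cysltr1 and Dpep2, as summed above, and their part in these differences was not tested.

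**Figure D2:**
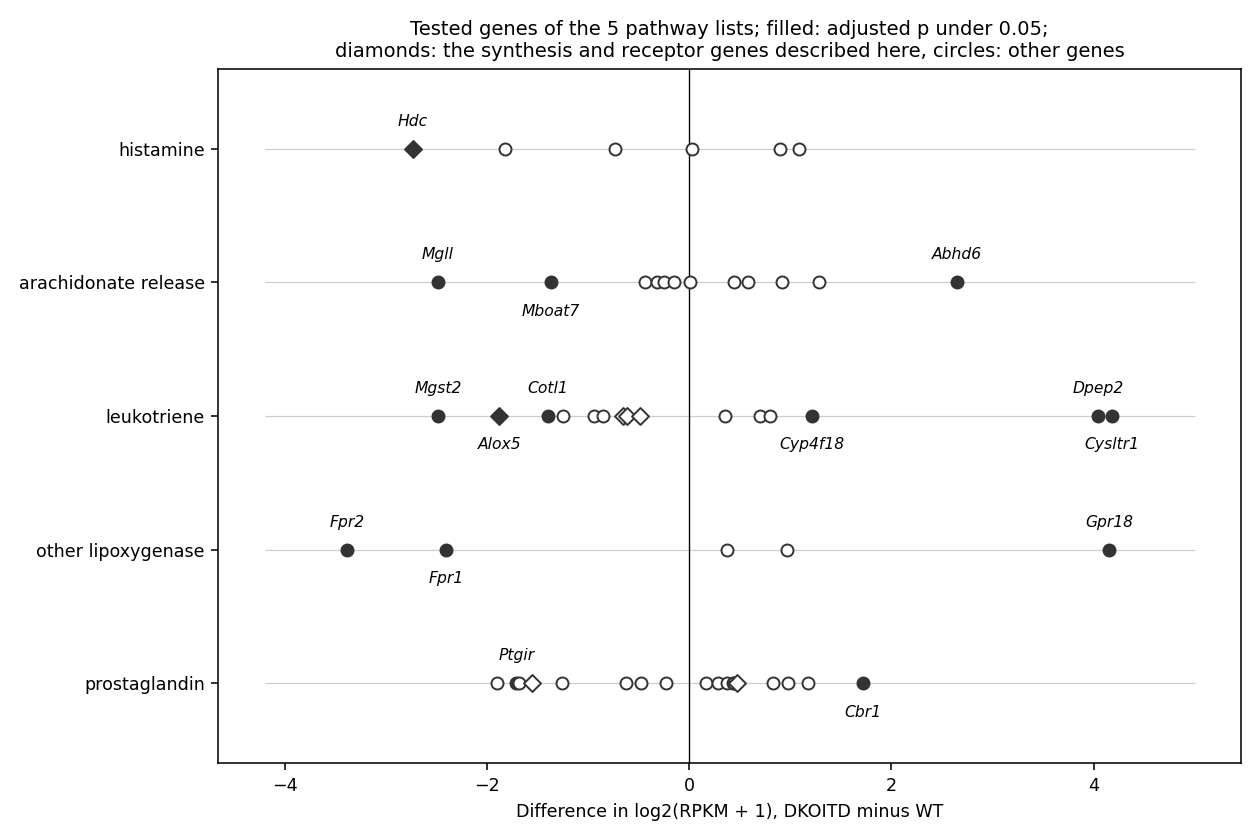
Difference in log2(RPKM + 1) between DKOITD and WT (horizontal axis) of the tested genes of 5 pathway lists (rows). Filled symbols passed an adjusted p of 0.05 and are named, and diamonds are the genes of the opening paragraph. Hdc (-2.74) is the only filled symbol of the histamine list, and the leukotriene list holds filled symbols on both sides of 0, from Mgst2 (-2.49) to Cysltr1 (4.19).

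Alox15 (chromosome 11, 70344152 to 70352031), the 12/15-lipoxygenase of eosinophils and resident macrophages, was listed at 0 in all 9 libraries. A count of 0 allows up to 3 reads of a library's total, of which DKOITD 2 has the fewest. The lipoxygenases Alox12, Alox12e, Alox12b and Alox8 and the epoxide hydrolase Ephx2 were also listed at 0 in every library. Of the eosinophil genes, the peroxidase Epx was at 0 throughout, and the 9 found in the table summed to a value from 8.99 to 47.8 RPKM in DKOITD, from 14.4 to 23.6 RPKM in ITD and from 12.9 to 24.8 RPKM in WT. Aloxe3 was at 0.0336 RPKM in ITD 2 and at 0 elsewhere, so Alox5 was the one lipoxygenase of these lists measured in every library.

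In the list of other lipoxygenase products and their receptors 5 of 13 symbols were tested. Of these 1 rose and 2 fell in DKOITD against WT, where 7.43% and 5.27% of all genes did. Rescaled per recovered read 2 rose and 2 fell, where 2525 and 247 of all 10868 genes did. The formyl peptide receptors Fpr1 and Fpr2, the second of which also binds lipoxin A4, fell by 2.41 ± 0.53 and 3.39 ± 0.59 (SE; limma, adjusted p = 0.0138 and 0.0056). Fpr2 measured 17.8, 81.9, 18.2 and 74.7 RPKM in DKOITD and 445, 693 and 216 RPKM in WT, so no DKOITD library reached WT. Gpr18, a lipid receptor of leukocytes, measured 86.9, 16.7, 82.4 and 72.8 RPKM in DKOITD and 1.92, 9.45 and 0 RPKM in WT, a rise of 4.15 ± 0.76 (SE; limma, adjusted p = 0.00681). In ITD, Fpr2 was at 169 and 360 RPKM and Gpr18 at 8.95 and 18.8 RPKM. With the number series as a model term all 3 calls were lost (adjusted p = 0.585 for Fpr1, 0.425 for Fpr2 and 0.257 for Gpr18), and that of Fpr1 also without a filter (0.0671).

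Ptgs1 (chromosome 2, 36230426 to 36252272), the constitutive cyclooxygenase COX-1, measured 9.35, 28.5, 13.1 and 10.9 RPKM in DKOITD. In the ITD group 32.3 and 28.1 RPKM were found, and WT 1 to 3 gave 19.96, 60.1 and 66.1 RPKM. DKOITD 2 lay above WT 1, so the groups overlapped. The log2 difference in DKOITD against WT was -1.55 ± 0.48 (SE; limma, adjusted p = 0.0534). It passed without DKOITD 2 (adjusted p = 0.0282), without WT 1 (0.0178) and under quantile normalization (0.0478), and was -0.82 ± 0.48 rescaled per recovered read (SE; adjusted p = 0.212). COX-1 is also abundant in platelets, and the 7 listed platelet genes summed to 0.178, 4.93, 1.43 and 0.239 RPKM in DKOITD 1 to 4. That sum was 0.0781 and 0.233 RPKM for ITD 1 and 2, and 101, 0.116 and 8.09 RPKM for WT 1 to 3. Ppbp was at 0 in every library. Pf4 made up nearly all of the sum in WT 1, the lowest WT library in Ptgs1, Gp9 all of it in WT 3, the highest, and Treml1 all of it in DKOITD 2, the highest of its group. Their part in the level of Ptgs1 was not tested. Exons of Gm43621 overlap those of Ptgs1 on the other strand.

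Ptgs2 (chromosome 1, 150100031 to 150108227), the inducible cyclooxygenase COX-2, had 0 reads in DKOITD 1 to 3 and 148 reads, or 2.38 RPKM, in DKOITD 4. It had 3 and 2 reads in ITD and 52, 0 and 20 reads in WT, or 0.67, 0 and 0.416 RPKM. A count of 0 allows up to 0.06, 0.198 and 0.0669 RPKM in DKOITD 1 to 3 and 0.064 RPKM in WT 2. It failed the filter and was not tested. The libraries with no reads were 3 of the lower label number series and WT 2.

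Ptges3 (chromosome 10, 128058954 to 128077272), a prostaglandin E synthase known also as the HSP90 partner p23, measured 81.7, 52.4, 52.9 and 43.3 RPKM in DKOITD. The ITD group held 52.7 and 42.5 RPKM, and WT 1 to 3 gave 56.8, 29.9 and 37.7 RPKM. Its log2 difference in DKOITD against WT, the only one above 0 among the 7, was 0.47 ± 0.33 (SE; limma, adjusted p = 0.346). Rescaled per recovered read it was 1.22 ± 0.37 and passed (SE; adjusted p = 0.0304), where all genes had a median of 0.74.

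Of the 28 symbols of the prostaglandin list 18 were tested, and 1 rose and 1 fell in DKOITD against WT. Of all tested genes 7.43% rose and 5.27% fell, so these counts are near the share of all genes. The median log2 difference of the list was 0.22, beside 0.17 for all genes. Rescaled per recovered read 4 of the list rose and 0 fell, where 2525 and 247 of all 10868 genes did. Ptgir, the prostacyclin receptor, measured 4.998, 2.87, 1.996 and 4.72 RPKM in DKOITD and 11.3, 24.6 and 8.98 RPKM in WT, a fall of 1.71 ± 0.49 (SE; limma, adjusted p = 0.0414). Cbr1, a carbonyl reductase that can turn prostaglandin E2 into F2α, rose by 1.71 ± 0.51 (SE; limma, adjusted p = 0.0475) from at most 2.00 RPKM in WT. Of 16 other settings, the call of Ptgir was lost in 13, among them without any of the 4 DKOITD libraries, ITD 2, WT 1 or WT 2, and that of Cbr1 in 12, among them without DKOITD 1 to 3, either ITD library, WT 1 or WT 2. Without DKOITD 1 the adjusted p was 0.0739 for Ptgir and 0.104 for Cbr1.

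Upstream of both branches, 12 of the 20 genes of arachidonate release were tested, of which 1 rose and 2 fell in DKOITD against WT. Rescaled per recovered read 3 rose and 1 fell, where 2525 and 247 of all 10868 genes did. Mgll, which hydrolyses monoacylglycerols to free fatty acid, measured 1.02, 1.18, 0 and 3.47 RPKM in DKOITD and 8.52, 20.8 and 6.97 RPKM in WT, a fall of 2.49 ± 0.58 (SE; limma, adjusted p = 0.0195). Abhd6, another monoacylglycerol hydrolase, measured 4.97, 6.51, 9.57 and 4.89 RPKM in DKOITD and 0.0265, 0 and 0.513 RPKM in WT, a rise of 2.65 ± 0.58 (SE; limma, adjusted p = 0.0137). Mboat7, which places arachidonate into phosphatidylinositol, fell by 1.37 ± 0.39 (SE; limma, adjusted p = 0.0394) and lost the call in 12 of 16 other settings, among them without DKOITD 1, DKOITD 3, DKOITD 4, either ITD library, WT 1 or WT 2 (adjusted p up to 0.119). The call of Mgll was lost in 6 of 16, without DKOITD 1, DKOITD 3 or WT 2 (adjusted p = 0.0525, 0.0596 and 0.0637), with a pseudocount of 0.1 (0.0531), without a filter (0.0598) and with the number series as a model term (0.596). That of Abhd6 was lost with the number series (adjusted p = 0.441). In ITD, Mgll was at 10.7 and 6.97 RPKM and Abhd6 at 0 and 4.18 RPKM. Across the 5 lists, 49 tested genes lie outside the 10, of which 6 rose and 7 fell in DKOITD against WT. Of all tested genes 7.43% rose and 5.27% fell in this comparison.

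**Figure D3:**
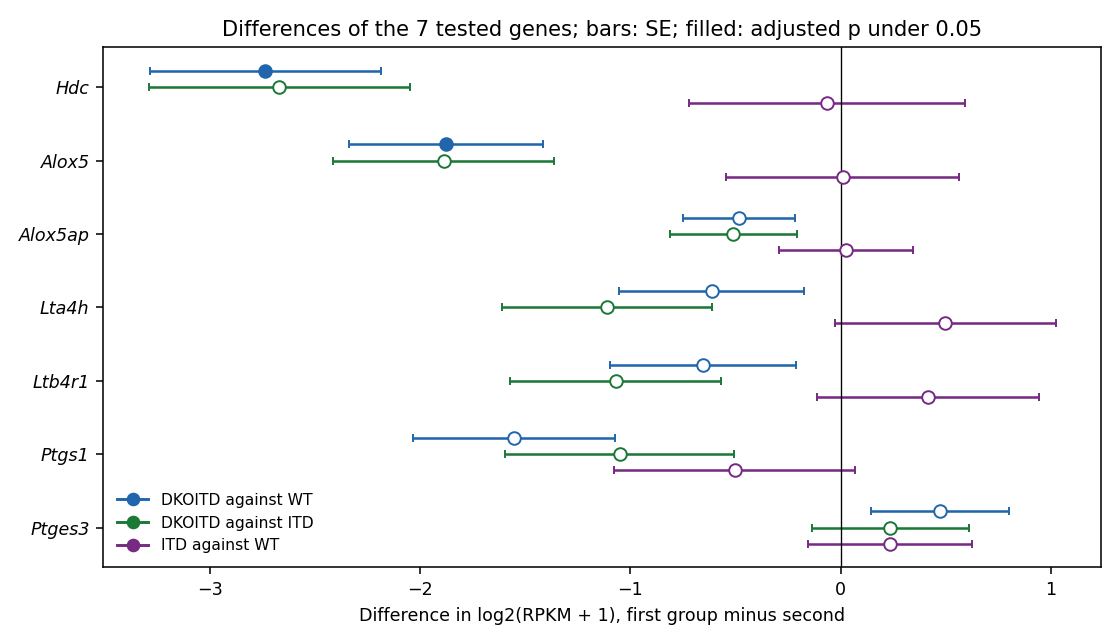
Difference in log2(RPKM + 1) with its SE (horizontal axis, first group minus second) of the 7 tested genes in the 3 comparisons, filled where the adjusted p was under 0.05. Only Hdc (-2.74) and Alox5 (-1.88) in DKOITD against WT are filled. Their differences against ITD (-2.67 and -1.89) are as far from 0 with wider bars, and those of ITD against WT (-0.07 and 0.01) lie at 0. The comparisons share libraries, and rescaled per recovered read Alox5 is not past the threshold.

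DKOITD and ITD differ by Rag1Cre, on the same floxed alleles and Flt3 ITD/+. Hdc, Alox5, Lta4h and Ltb4r1 were lower in all 4 DKOITD libraries than in both ITD libraries, 4 of 7 where 31.3% of all genes were separated in this way, 17.3% higher and 14.0% lower. Of the 7 tested genes 0 passed (limma, adjusted p under 0.05), where 0.212% of all genes did, 0.156% higher and 0.0552% lower. An unadjusted p under 0.05 was found for 3 of the 7, where 15.7% of all genes had one. Hdc stood at -2.67 ± 0.62 (SE; limma, adjusted p = 0.0681), Alox5 at -1.89 ± 0.53 (SE; adjusted p = 0.107) and Lta4h at -1.11 ± 0.50 (SE; adjusted p = 0.307). Hdc passed without DKOITD 4 (adjusted p = 0.0181) and with library weights (0.0283), and Alox5 with library weights (0.0414). Ltb4r1 stood at -1.07 ± 0.50, Ptgs1 at -1.05 ± 0.54 and Ptges3 at 0.24 ± 0.37 (SE; limma, adjusted p = 0.331, 0.385 and 0.817). Alox5ap stood at -0.51 ± 0.30 (SE; adjusted p = 0.456) and at 0.04 ± 0.28 rescaled per recovered read (SE; adjusted p = 0.936). The median of the 7 was -1.07, beside 0.11 for all genes. Over all genes 17 rose and 6 fell, against 248 and 26 rescaled per recovered read and 25 and 17 under quantile normalization.

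Among the other pathway genes 1 passed in DKOITD against ITD. Ggt1, a γ-glutamyl transferase that converts leukotriene C4 to D4, was listed at 0 in all 4 DKOITD libraries, at 5.90 and 7.25 RPKM in ITD and at 2.80, 1.09 and 0.683 RPKM in WT. It fell by 2.92 ± 0.48 (SE; limma, adjusted p = 0.0372), a size that depends on the pseudocount because DKOITD is at 0. Of 16 other settings 7 lost the call, among them those without DKOITD 1, DKOITD 2, DKOITD 3, ITD 1 or ITD 2 (adjusted p = 0.11, 0.0528, 0.114, 0.16 and 0.265). Mgst2 stood at -1.99 ± 0.40 (SE; adjusted p = 0.0578) and Cysltr1 at 2.33 ± 0.66 (SE; adjusted p = 0.11).

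ITD and WT differ by Flt3 ITD/+, and this comparison rests on 2 ITD libraries. Of the 7 tested genes 0 passed (limma), where 0.00920% of all genes did, and 0 had an unadjusted p under 0.05, where 7.93% of all genes had one. The groups overlapped for all 7, while 19.1% of all genes were separated, 10.1% higher and 8.99% lower. The log2 differences ran from -0.50 ± 0.57 for Ptgs1 to 0.50 ± 0.53 for Lta4h (SE; limma, adjusted p = 0.834 and 0.818). Both ends moved with 1 WT library, Lta4h to 1.18 without WT 3 and 0.088 without WT 1, and Ptgs1 to -0.20 without WT 3 and -1.04 without WT 1, with 0 of these past the threshold. Hdc stood at -0.07 ± 0.66 and Alox5 at 0.01 ± 0.55 (SE; limma, adjusted p = 1 for both), with signs that turned under other settings (Hdc 0.14 rescaled per recovered read, Alox5 -0.04 under quantile normalization). SEs of this width do not show that ITD and WT are alike. Of the 49 other pathway genes 0 passed in this comparison too.

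**Figure D4:**
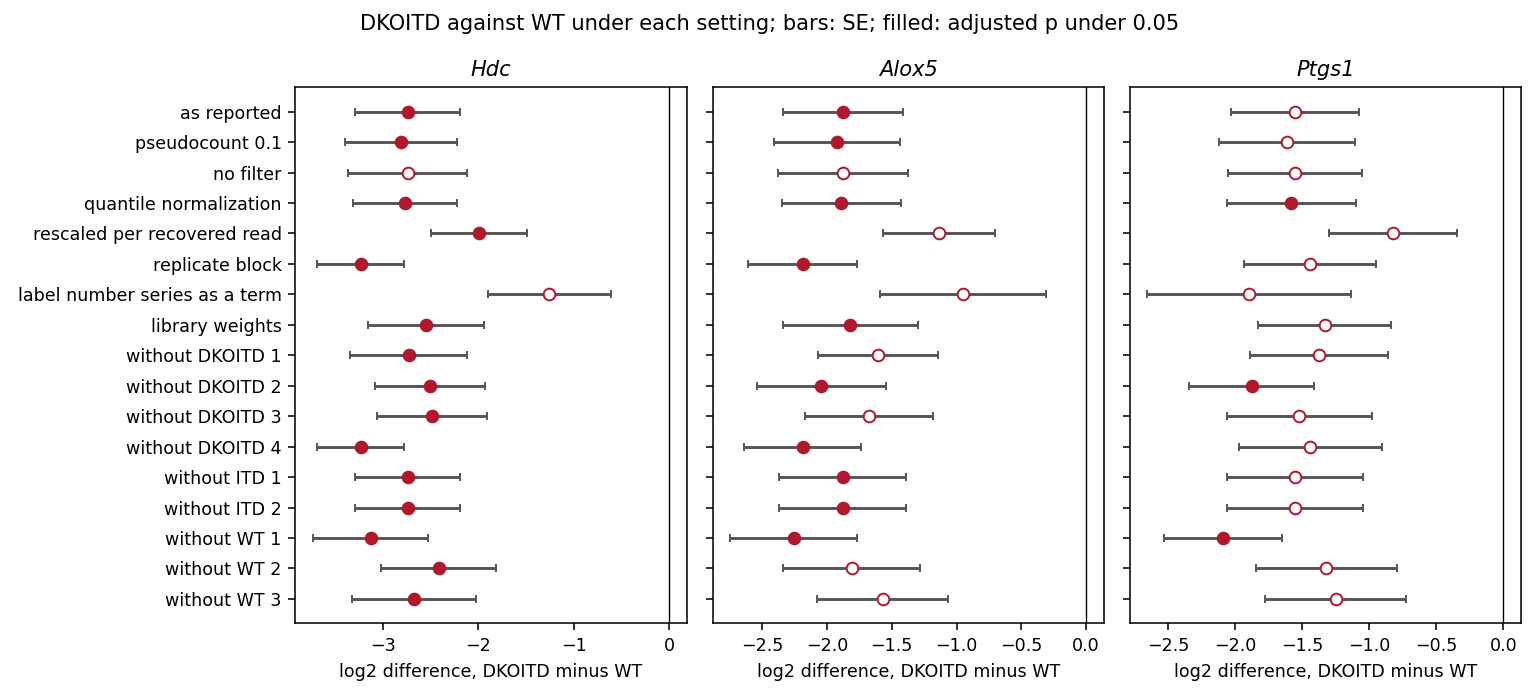
Difference in log2(RPKM + 1) between DKOITD and WT with its SE (horizontal axis) for Hdc, Alox5 and Ptgs1 under each setting (rows), filled where the adjusted p was under 0.05. All values lie below 0, the smallest for Hdc and Alox5 being those with the number series as a model term (-1.25 and -0.95), and Hdc stays filled in all 9 rows that leave out a library.

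Which genes had the most similar profiles over the 9 libraries was read from Pearson's r of log2(RPKM + 1) among 9887 tested genes, as a description without a test, since the points share library depth and cell make-up. The closest profiles to Hdc were the kinase Fgr (0.99), Gabarap (0.97) and Klf5 (0.97). Those closest to Alox5 were lactoferrin, Ltf (0.99), a neutrophil secondary granule protein, the sialidase Neu1 (0.98) and Prdx6 (0.98). Alox5ap was closest to Slc25a28, Pag1 and Nudt7 (0.97 each), Ptgs1 to Pkm (0.96), Nap1l4 (0.94) and P2rx1 (0.93), and Ptges3 to H3f3b (0.91), Pet112 (0.90) and Psmb1 (0.90). Lta4h was closest to Wbp2 (0.95), Ltb4r1 (0.94) and Sept5 (0.94), so the enzyme of leukotriene B4 and its receptor, whose upstream sequences are printed above, had similar profiles. Ltb4r1 itself was closest to Prelid1 (0.96), Eri2 (0.95) and Wbp2 (0.95). Hdc and Alox5 had an r of 0.895, and Ptges3 was negative against each of the 6 others, from -0.35 with Lta4h to -0.76 with Alox5.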

How the data were processed

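RNA was sequenced from 9 libraries of 100 sorted cells with Smart-seq2, a full-length method without strand or molecular identifiers, per the labels' protocols. The authors deposited RPKM values per gene symbol. STAR 2.4.2a, SAMtools 1.1, HTSeq 0.6.1p1 and the build mm10 come from the submitters' processing notes, and the sources used here give no annotation or counting settings. Reads were recovered as whole multiples for 15564 of 15566 genes above 0 (lengths of 20 to 30000 bp, tolerance 0.0001 reads), taking the smallest length that gave whole reads, so some genes may be undercounted. The denominators of the RPKM columns were 0.703 to 1.44 times these reads and differed by group. The factor was 1.13 to 1.44 in DKOITD, 0.853 to 0.919 in ITD and 0.703 to 0.810 in WT. Rescaling per recovered read removes this factor, which raises DKOITD values relative to the other groups. It moved the median log2 difference of all genes in DKOITD against WT to 0.74. The geometric mean of the 9 factors was 1.0004. The neutrophil genes S100a8 and S100a9 held 1.60 to 9.99% of recovered reads in DKOITD, 20.6% in ITD and 23.7 to 30.3% in WT. What the factors were meant to correct is not stated, and the part of these genes in them was not tested.

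Sample titles gave the groups. No pair of libraries was identical. Genes with at least 1 RPKM in at least 2 libraries were fitted as log2(RPKM + 1) with limma 3.58.1 in R 4.3.3 (eBayes with trend), all 9 libraries in 1 fit with group as the factor. Tests were two-sided with Benjamini-Hochberg adjustment over 10868 genes, and the code was tested on simulated data. Differences on this scale understate changes of low genes. The 10 genes, the 5 pathway lists (96 symbols), the 9 marker lists and the tests were chosen with earlier results of these data known. Named genes are the 10, the pathway genes past the threshold (at most 5 a list and comparison), and the 3 closest profiles of each tested gene of the 10. Others were chosen after their values were seen. Alternatives were a pseudocount of 0.1, no filter, quantile normalization, rescaling per recovered read, a replicate block, the label number series, library weights and leaving out each library. Positions are from GENCODE vM21.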

Additional observations from a re-analysis of the deposited data

Results flagged for a closer look

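Ptgs2 in DKOITD 4, at 2.38 RPKM from 148 reads, stood apart from the 3 other DKOITD libraries, which were all at 0, so that the gap to the next library made up the whole range of the group. Of the 10 genes, 9 varied among the 4 DKOITD libraries and 1 stood out in this way. The rule marks about 1 in 20 groups by chance where values spread normally. That rate does not apply here, because with the 3 others at 0 any value above 0 gives this result. DKOITD 4 is the one DKOITD library with a label number in the 385 to 393 series.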

How the results depend on the processing

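Of the 7 tested genes, the count past the threshold in DKOITD against WT was 2, and it was 0 without a filter, 0 with the label number series in the model, and 1 to 3 when each library was left out. In DKOITD against ITD the count was 0, and it was 1 with the replicate number as a block, 2 with library weights, and 0 to 1 when each library was left out (1 without DKOITD 4). Rescaled per recovered read, differences turned to 0.28 for Alox5ap, 0.15 for Lta4h and 0.11 for Ltb4r1 in DKOITD against WT, to 0.044 for Alox5ap in DKOITD against ITD and to 0.14 for Hdc in ITD against WT. Ptges3 in DKOITD against ITD turned to -0.13 with the label number series in the model. In ITD against WT, Alox5 turned to -0.039 under quantile normalization, Alox5ap to -0.13 with the replicate block and Hdc to 0.18 with library weights. None of these turned values had passed the threshold, and the cause was not tested.

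Leaving out each library, Lta4h ranged from -1.02 to 0.067 and Ltb4r1 from -1.16 to -0.034 in DKOITD against WT. In ITD against WT, Hdc ranged from -0.64 to 0.51, Alox5 from -0.37 to 0.32, Alox5ap from -0.20 to 0.26, Ltb4r1 from -0.094 to 1.04, Lta4h from 0.088 to 1.18, Ptgs1 from -1.04 to -0.20 and Ptges3 from 0.032 to 0.48. Without an ITD library the group keeps 1 sample, assumed to vary like the other groups. Deviations of same-numbered libraries had correlations from -0.04 to 0.07, within the range of -0.13 to 0.17 for the other pairs. In groups this small such correlations cannot show whether the numbers pair libraries. With the replicate block Hdc passed in DKOITD against ITD (-3.14 ± 0.53 SE, limma adjusted p = 0.0476) and no other of the 7 genes gained or lost a call. Among other pathway genes the block ended the calls of Cyp4f18 (adjusted p = 0.0524), Mboat7 (0.0672) and Ptgir (0.0693) in DKOITD against WT and of Ggt1 (0.093) in DKOITD against ITD, where Fpr1 (0.0465) and Fpr2 (0.042) gained one.

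Over all genes, the 1380 calls of DKOITD against WT became 733 without a filter, 2772 rescaled per recovered read, 884 with the block, 4 with the number series and 541 to 1962 leaving out libraries. The 23 of DKOITD against ITD became 42 under quantile normalization, 274 rescaled, 57 with the block, 0 with the number series, 526 with library weights and 0 to 156 leaving out libraries. The 1 of ITD against WT became 2 with a pseudocount of 0.1, 3 without a filter, 0 with the block and 0 to 47 leaving out libraries. Depth limits Ltc4s and Alox15, at 0 to 11 reads in every library, and Ptgs2 in the 4 libraries where it had 0 reads.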

Other observations

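Several enzymes and receptors past the cyclooxygenase step were at or near 0 in these cells, and the genes in this paragraph were chosen after their values were seen. Thromboxane synthase, Tbxas1, measured 20.2, 9.27, 25.5 and 23.2 RPKM in DKOITD. ITD 1 and 2 gave 8.83 and 8.28 RPKM, and WT 1 to 3 gave 8.24, 9.12 and 12.9 RPKM. Its log2 difference in DKOITD against WT was 0.83 ± 0.41 (SE; limma, adjusted p = 0.201). The inducible prostaglandin E synthase Ptges was at most 3.30 RPKM in DKOITD and lay between 4.61 and 8.38 RPKM in WT. ITD 1 and 2 gave 3.04 and 0 RPKM, also below every WT library. The difference of Ptges in DKOITD against WT was -1.90 ± 0.62 and did not pass (SE; limma, adjusted p = 0.0635). The haematopoietic prostaglandin D synthase Hpgds was at most 3.19 RPKM in any library. Among prostaglandin E receptors, Ptger4 measured 14.7, 6.27, 13.1 and 9.65 RPKM in DKOITD and 5.22, 14.9 and 5.15 RPKM in WT. Prostacyclin synthase Ptgis, the prostaglandin F receptor Ptgfr and the thromboxane receptor Tbxa2r were listed at 0 in all 9 libraries.

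The group of leukotriene receptors was uneven in the same libraries. Cysltr2, Gpr17 and Oxgr1 were listed at 0 in every library and Ltb4r2 was at most 0.148 RPKM, so Ltb4r1 and Cysltr1 were the receptors of that list with levels above 1 RPKM in any library.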
